A study of Homo sapiens with 12 samples.

Results

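TGM2 and 7 other genes are described here, each of which moved one way in treated AGS cells and the other way in treated MKN1 cells. The others are HYAL3, ZDHHC11, TSPOAP1, TMEM217, CACNG6, ACSF2 and MFSD4A. All 8 of the listed symbols were found among the 32269 Ensembl identifiers of the count matrix, and all 8 were among the 20280 genes that passed the filter on low counts. The members were chosen by their measured treatment changes, large and of opposite direction in the 2 lines, so their treatment values are given as a description without a test. The line by treatment values are likewise untested here. What the choice did not use is the level of a gene in MKN1 against AGS averaged over both treatments, and that comparison was tested.

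RNA was sequenced from AGS, a human gastric adenocarcinoma line, and from MKN1, a human gastric adenosquamous carcinoma line, each labelled wild type. Each line was grown untreated or with cantharidin sodium, derived from a toxin of blister beetles that blocks protein phosphatases such as PP2A. There were 3 libraries in each of the 4 groups, called biological replicates by the submitters. The labels read here state neither dose nor duration.

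Depth lay between 28604966 and 51604215 counts per library. Epithelial keratin KRT8 was between 2017 and 4218 CPM (counts scaled to library size) in all libraries. EPCAM, an epithelial adhesion gene, was 421 to 455 CPM in AGS but 16.96 to 27.02 CPM in MKN1. Of the mesenchymal markers, VIM was at 525.6 to 854.9 CPM in MKN1 and 10.97 to 17.91 CPM in AGS. COL1A1 was at 7.05 to 24.14 CPM over all libraries, COL1A2 at most 0.671 CPM and PDGFRB at most 3.321 CPM. The squamous keratin KRT5 was 381 to 661 CPM in MKN1 and at most 0.122 CPM in AGS, and TP63, KRT6A and KRT14 were likewise at most 0.424 CPM in AGS, but SFN, of the same squamous list, was at 89.92 to 192.2 CPM there. Of 4 endothelial and blood markers, PTPRC and PECAM1 were at most 0.93 CPM anywhere, VWF reached 2.43 CPM, and CD14 was at 2.796 to 8.026 CPM in MKN1. Of 6 gastric markers, GATA4 (64.89 to 136.9 CPM), GATA6 (59.56 to 67.84 CPM), SOX2 (11.1 to 28.69 CPM) and TFF1 (3.411 to 6.995 CPM) were detected in AGS. In MKN1 GATA6 was at 30.76 to 42.55 CPM and GATA4 at 6.079 to 15.68 CPM, while SOX2 and TFF1 were at most 0.558 CPM. CLDN18 and MUC5AC were at most 1.40 CPM in both lines. Untreated MKN1 replicate 3 stood somewhat apart: its log2 CPM correlated at 0.960 and 0.962 with the other two libraries of its group, against 0.976 between those.

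TGM2 encodes tissue transglutaminase, a calcium-dependent enzyme that joins glutamine to lysine side chains of proteins and also binds GTP. It is found in the cytosol and at the cell surface, where it binds fibronectin and integrins, and its gene is a classical target of retinoic acid. CACNG6 encodes a gamma subunit of voltage-gated calcium channels, ACSF2 a mitochondrial acyl-CoA synthetase that activates fatty acids, and MFSD4A a membrane protein of the major facilitator family of transporters. TSPOAP1 encodes a scaffold, also called RIM-BP1, that binds presynaptic calcium channels and the mitochondrial protein TSPO. ZDHHC11 encodes a DHHC-type palmitoyltransferase, HYAL3 a member of the hyaluronidase family, and TMEM217 a transmembrane protein.

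Of the 8 genes, 7 share some exon bases with another gene, and 1, ZDHHC11, has a near-identical copy, ZDHHC11B, on the same chromosome and strand. Their longest annotated coding sequences (GENCODE release 29) aligned over 1113 bases at 97.4% identity, with 29 differences. The alignment also held 156 gap bases. Within the aligned stretches, only reads over differing positions tell the copies apart. The 120 ungapped bases with the most differences are shown 5′ to 3′. They are coding bases 100 to 219 of ZDHHC11 and 133 to 252 of ZDHHC11B, and capitals mark the 9 bases at which the copies differ.
ZDHHC11: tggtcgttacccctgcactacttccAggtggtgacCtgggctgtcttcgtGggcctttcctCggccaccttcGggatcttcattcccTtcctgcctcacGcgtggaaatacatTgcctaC
ZDHHC11B: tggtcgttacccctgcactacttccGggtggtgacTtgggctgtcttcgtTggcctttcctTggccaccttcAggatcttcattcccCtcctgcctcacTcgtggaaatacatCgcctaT
Of the 7450 distinct runs of 50 bases in ZDHHC11 transcripts, 22.7% also occurred in transcripts of another gene, 20.5% in ZDHHC11B. The other 7 genes shared between 0.0% (CACNG6) and 7.81% (HYAL3, with NAA80) of such runs. Neither the read length nor the way the authors counted reads that fit several genes is stated in the labels read here.

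The promoter windows of this pair were unlike each other. RefSeq (GRCh38.p14) gave windows of 250 bases before to 50 after a start for 5 of the 8 genes. The windows of ZDHHC11 and its copy are shown to compare the pair. Capitals mark the GC box (GGGCGG) and the CCAAT box (CCAAT), searched on both strands, with overlapping matches kept.
ZDHHC11, chr5:850937-851236, minus strand: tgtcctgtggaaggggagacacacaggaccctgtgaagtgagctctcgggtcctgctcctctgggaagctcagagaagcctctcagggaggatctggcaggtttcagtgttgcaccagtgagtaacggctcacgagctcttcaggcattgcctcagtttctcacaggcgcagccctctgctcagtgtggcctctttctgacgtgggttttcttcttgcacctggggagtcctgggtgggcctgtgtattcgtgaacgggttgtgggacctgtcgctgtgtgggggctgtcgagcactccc
ZDHHC11B, chr5:784680-784979, minus strand: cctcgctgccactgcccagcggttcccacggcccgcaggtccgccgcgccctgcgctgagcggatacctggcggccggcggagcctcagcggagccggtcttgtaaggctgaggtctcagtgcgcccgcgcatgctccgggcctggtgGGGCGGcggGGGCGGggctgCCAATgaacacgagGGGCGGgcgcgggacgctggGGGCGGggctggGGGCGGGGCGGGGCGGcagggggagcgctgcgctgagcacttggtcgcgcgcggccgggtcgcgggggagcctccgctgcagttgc
The ZDHHC11 window held 0 CCAAT boxes, 0 GC boxes and 9 CpG pairs at 59.0% GC, and the ZDHHC11B window 7 GC boxes, 1 CCAAT box and 40 CpG pairs at 78.3% GC. Over all 34943 distinct RefSeq windows, 44.9% held a GC box and 34.6% a CCAAT box.

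HYAL3 and TMEM217 share their start regions with other genes, which gives a comparison within a locus. HYAL3 has 2 RefSeq windows, and the first of them is base for base the window of NAA80, the gene of an actin acetyltransferase. TMEM217 has 2 windows as well, the first of them base for base that of TMEM217B. The second covers the place where TBC1D22B, a gene of a Rab GTPase-activating family, starts on the other strand, 0.383 kb inside TMEM217. The first HYAL3 window, the second TMEM217 window and the CACNG6 window are shown with the same 2 motifs in capitals.
HYAL3 and NAA80, chr3:50299356-50299655, minus strand: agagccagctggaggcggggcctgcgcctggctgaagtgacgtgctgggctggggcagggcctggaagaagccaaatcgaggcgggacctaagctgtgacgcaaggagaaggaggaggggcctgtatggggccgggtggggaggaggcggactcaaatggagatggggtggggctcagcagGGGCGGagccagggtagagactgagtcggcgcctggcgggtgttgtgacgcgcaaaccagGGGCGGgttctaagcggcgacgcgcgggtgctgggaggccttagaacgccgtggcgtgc
TMEM217, chr6:37257550-37257849, minus strand: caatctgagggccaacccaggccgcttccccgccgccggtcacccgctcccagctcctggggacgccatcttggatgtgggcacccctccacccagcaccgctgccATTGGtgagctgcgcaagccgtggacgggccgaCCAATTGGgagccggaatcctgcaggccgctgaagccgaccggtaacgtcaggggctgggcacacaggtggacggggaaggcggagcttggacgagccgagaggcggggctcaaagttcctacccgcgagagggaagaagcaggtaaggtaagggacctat
CACNG6, chr19:53991387-53991686, plus strand: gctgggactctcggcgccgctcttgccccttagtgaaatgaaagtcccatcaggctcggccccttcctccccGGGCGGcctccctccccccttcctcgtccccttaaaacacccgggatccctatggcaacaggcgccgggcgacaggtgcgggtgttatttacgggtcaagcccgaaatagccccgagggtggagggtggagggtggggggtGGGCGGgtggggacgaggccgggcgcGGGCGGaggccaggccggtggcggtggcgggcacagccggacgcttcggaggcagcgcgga
The HYAL3 window shown held 2 GC boxes and the TMEM217 window shown 3 CCAAT boxes. The CACNG6 window, shown for a gene opposed in the other direction, held 3 GC boxes. Not shown are the first TMEM217 window, with 1 GC box and 1 CCAAT box, and the second HYAL3 window, with 2 GC boxes. Also not shown is the window of ACSF2, opposed in the same direction as CACNG6, with 0 GC boxes and 0 CCAAT boxes. The cAMP element TGACGTCA, found in 1.84% of all windows, and the AP-1 site TGANTCA, found in 7.72%, occurred in 0 windows of the 5 genes. TATAAA (11.6% of all windows) occurred in 0 of them too. CACGTG (7.23%) occurred in ACSF2, GGAATG (14.04%) in HYAL3, and AGGTCA (13.8%) in TMEM217, each in 1 window. The ACSF2 window is at a start inside the gene, at 50468329 on chromosome 17, and not at the gene's first base. A match of letters is a description and not a binding site.

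The 4 genes that were higher in treated AGS cells and lower in treated MKN1 cells are TGM2, CACNG6, ACSF2 and MFSD4A. TGM2 (ENSG00000198959, chromosome 20, 38127387 to 38166578 in GRCh38, minus strand) was at 36.8, 27.5 and 30.4 CPM in untreated AGS libraries and at 106, 108 and 107 CPM in treated ones. MKN1 libraries were at 82.5, 97.8 and 114 CPM untreated and at 31.9, 41.6 and 33.9 CPM treated. The groups did not overlap within either line, and the 2 lines exchanged their levels. Untreated AGS libraries overlapped with treated MKN1 libraries, and treated AGS libraries with untreated MKN1 libraries. The mean in treated AGS cells was 107 ± 1.24 CPM (SD, n = 3) and in untreated MKN1 cells 98.1 ± 15.7 CPM (n = 3). The log2 fold change was 1.76 (SE 0.15) in AGS and −1.45 (SE 0.15) in MKN1.

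CACNG6 (ENSG00000130433, chromosome 19, 53992288 to 54012669, plus strand) was at 3.94, 5.94 and 7.62 CPM in untreated and 13.96, 18.8 and 11.6 CPM in treated AGS libraries. MKN1 libraries were at 28.3, 33.6 and 28.4 CPM in untreated and 14.8, 12.3 and 8.62 CPM in treated libraries. The log2 fold changes, 1.34 (SE 0.26) in AGS and −1.34 (SE 0.26) in MKN1, were of the same size. The treated libraries of the 2 lines overlapped, while untreated AGS lay below and untreated MKN1 above all of them.

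ACSF2 (ENSG00000167107, chromosome 17, 50426158 to 50474845, plus strand) was at 26.1, 27.3 and 30.2 CPM in untreated and 41.7, 40.7 and 42.0 CPM in treated AGS libraries. The MKN1 levels were 33.0, 37.7 and 35.6 CPM in untreated and 12.1, 10.8 and 7.203 CPM in treated libraries. The change was larger in MKN1, at −1.82 (SE 0.16) on the log2 scale, than in AGS, at 0.57 (SE 0.16). All 4 groups were apart from each other, with treated MKN1 lowest and treated AGS highest.

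MFSD4A (ENSG00000174514, chromosome 1, 205568885 to 205602918, plus strand) was the least abundant of these 4 in CPM. It was at 2.56, 2.31 and 3.21 CPM in untreated and 4.35, 4.75 and 3.86 CPM in treated AGS libraries. The MKN1 levels were 7.41, 8.06 and 9.01 CPM in untreated and 2.25, 2.86 and 1.29 CPM in treated libraries. Its log2 fold change was 0.68 (SE 0.26) in AGS and −1.94 (SE 0.27) in MKN1. Treated MKN1 libraries overlapped with untreated AGS libraries, and the other groups were apart.

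**Figure D1:**
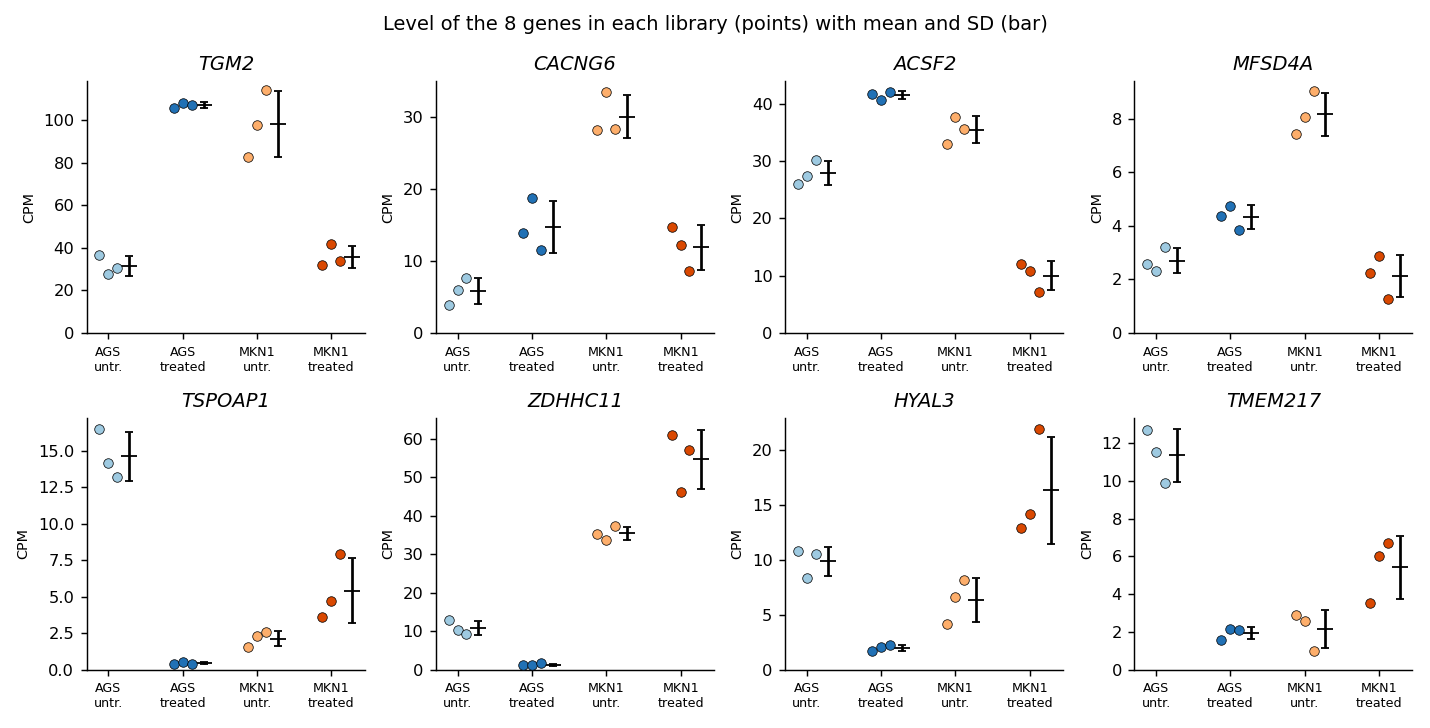
CPM (y axis, linear from 0) of the 8 genes in the 12 libraries, by line and treatment; points are libraries and bars the mean and SD of 3. In the upper row treated AGS points lie above and treated MKN1 points below their untreated groups, and the lower row shows the reverse, with TSPOAP1 at most 0.516 CPM in treated AGS.

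The 4 genes with the opposite pattern, lower in treated AGS cells and higher in treated MKN1 cells, are TSPOAP1, ZDHHC11, HYAL3 and TMEM217. TSPOAP1 (ENSG00000005379, chromosome 17, 58301228 to 58328760, minus strand) had the largest change of the 8 in AGS. It was at 16.5, 14.2 and 13.2 CPM in untreated AGS libraries and at 0.426, 0.516 and 0.364 CPM in treated ones, from 14, 20 and 13 counts. In the MKN1 line its levels were 1.53, 2.30 and 2.58 CPM in untreated and 3.58, 4.73 and 7.90 CPM in treated libraries. The log2 fold change was −5.05 (SE 0.34) in AGS and 1.34 (SE 0.29) in MKN1. The line with more of this scaffold transcript was AGS when untreated, by 6.84-fold, and MKN1 when treated, by 12.4-fold.

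ZDHHC11 (ENSG00000188818, chromosome 5, 795606 to 850986, minus strand) was at 12.8, 10.3 and 9.22 CPM in untreated and 1.22, 1.11 and 1.65 CPM in treated AGS libraries. In the MKN1 line its levels were 35.1, 33.7 and 37.2 CPM in untreated and 60.8, 46.1 and 57.1 CPM in treated libraries. The log2 fold change was −3.02 (SE 0.19) in AGS and 0.63 (SE 0.16) in MKN1, the smallest in MKN1 of the 8. Of the 8 genes it was the only one that was higher in the same line, MKN1, both untreated (3.29-fold) and treated (41.2-fold).

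The copy ZDHHC11B did not pass the test in either line. ZDHHC11B was at 3.80, 3.09 and 2.82 CPM in untreated and 3.01, 2.71 and 2.46 CPM in treated AGS libraries, and these overlapped. Its log2 fold change in AGS was −0.25 (SE 0.19, adjusted p = 0.375 by edgeR's quasi-likelihood test) and in MKN1 0.15 (SE 0.17, adjusted p = 0.639). Since reads that lie in shared stretches can be split between the copies, the values of both are uncertain.

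HYAL3 (ENSG00000186792, chromosome 3, 50292831 to 50299468, minus strand) was at 10.8, 8.34 and 10.5 CPM in untreated and 1.70, 2.04 and 2.21 CPM in treated AGS libraries. In MKN1 it was at 4.15, 6.64 and 8.12 CPM in untreated and 12.9, 14.2 and 21.9 CPM in treated libraries. The log2 fold change was −2.31 (SE 0.28) in AGS and 1.37 (SE 0.26) in MKN1. All 4 groups were apart, with treated AGS lowest and treated MKN1 highest.

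NAA80, which shares a start window and 12.2% of the exon bases of HYAL3, did not pass the test in either line. NAA80 was at 4.69, 5.00 and 4.96 CPM in untreated AGS, 5.11, 5.16 and 5.57 CPM in treated AGS, and 3.40 to 5.45 CPM in MKN1. Its log2 fold change was 0.11 (SE 0.18, adjusted p = 0.693) in AGS and 0.25 (SE 0.18, adjusted p = 0.443) in MKN1. The hyaluronidase genes HYAL1 and HYAL2, which lie next to HYAL3, also missed the threshold within each line. HYAL1 had log2 fold changes of 0.50 (adjusted p = 0.139) in AGS and −1.04 (adjusted p = 0.0666) in MKN1, and HYAL2 had −0.08 (adjusted p = 0.756) and −0.09 (adjusted p = 0.763). The difference between the lines, which passed for 15.7% of all tested genes, passed for HYAL1 (−1.55, adjusted p = 0.0186), with the sign opposite to that of HYAL3. IFRD2, which shares 2.12% of the HYAL3 exon bases, had −0.27 (adjusted p = 0.285) and 0.14 (adjusted p = 0.674).

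TMEM217 (ENSG00000172738, chromosome 6, 37212180 to 37258155, minus strand) was at 12.7, 11.5 and 9.88 CPM in untreated and 1.58, 2.17 and 2.10 CPM in treated AGS libraries. In MKN1 it was at 2.89, 2.59 and 0.981 CPM in untreated and 3.52, 6.01 and 6.74 CPM in treated libraries. The log2 fold change was −2.54 (SE 0.35) in AGS and 1.34 (SE 0.35) in MKN1. Untreated MKN1 replicate 3 was the lowest of its group, and without it the value in MKN1 was 0.98 (SE 0.28). TBC1D22B, which starts inside TMEM217, was between 26.7 and 33.1 CPM in all AGS libraries with 0.21 as its log2 fold change (SE 0.17, adjusted p = 0.397).

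Across the 8 genes, 8 had no overlap between treated and untreated libraries in AGS and 8 in MKN1, where the same held for 52.4% and 21.4% of all tested genes. Opposite shifts without overlap in both lines were seen for 6.79% of tested genes, 1378 in all, equally many in each direction (3.4% and 3.4%). Shifts without overlap in the same direction in both lines, which 0 of the 8 had, were seen for 4.25%. These counts follow from how the genes were chosen, and nothing is read from them. Without untreated MKN1 replicate 3, the MKN1 log2 fold changes of the 8 were 0.66 to 1.87 in size and kept their signs.

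**Figure D2:**
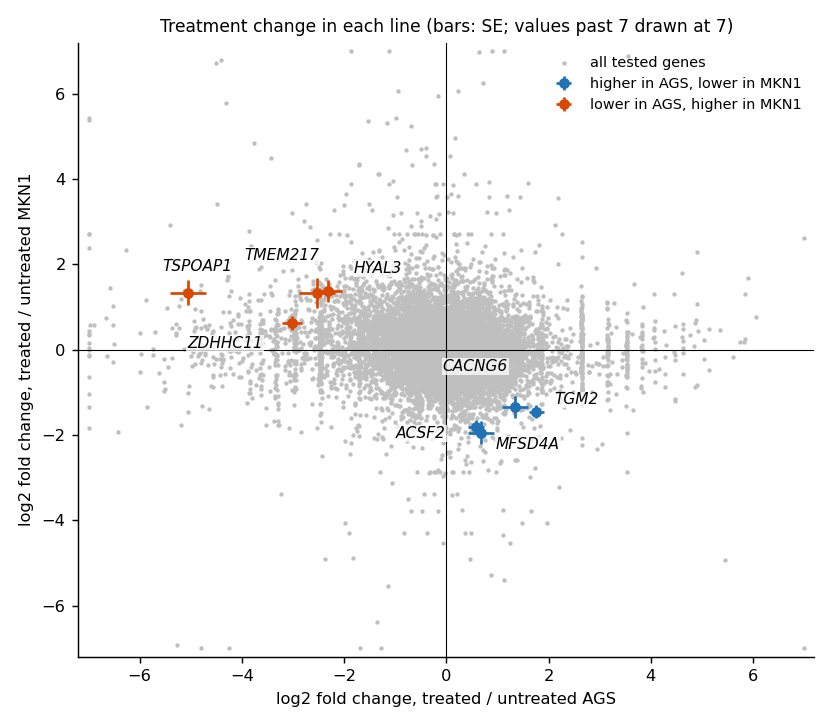
Log2 fold change (treated over untreated) in AGS (x axis) and MKN1 (y axis) for 20280 tested genes in grey and the 8 described genes in colour, with SE bars; values past 7 are drawn at 7. TGM2, CACNG6, ACSF2 and MFSD4A lie at the lower right and TSPOAP1, ZDHHC11, HYAL3 and TMEM217 at the upper left, with many other genes in the same 2 corners.

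These 8 genes were not the most opposed in the matrix. Ranked by the smaller of the 2 absolute log2 fold changes among genes of opposite sign and at least 1 CPM on average, TGM2 stood 31st, HYAL3 46th, TSPOAP1 53rd, CACNG6 54th and TMEM217 55th. MFSD4A stood 421st, ZDHHC11 525th and ACSF2 662nd by this measure, each because of a small change in 1 of the lines.

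Levels of different genes can be set side by side only per length, as CPM per kilobase of annotated exon (RPKM). On this scale TGM2 led the 8 in treated AGS cells at 13.3 RPKM, ahead of CACNG6 at 7.97 and ACSF2 at 7.15. In untreated MKN1 cells CACNG6 led at 16.2 RPKM, followed by TGM2 at 12.2. HYAL3 had 4.86 RPKM in untreated AGS and was first of the 8 in treated MKN1 at 8.04, next to ZDHHC11 at 7.86. TSPOAP1 was the lowest of the 8 in treated AGS at 0.0383 RPKM.

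The test that did not use the choice compared the lines over both treatments. Of the 8 genes 4 differed, ZDHHC11, HYAL3 and CACNG6 with more in MKN1 and ACSF2 with more in AGS, while 75.6% of all tested genes differed between the lines, 39.9% with more in MKN1 and 35.7% with more in AGS. ZDHHC11 was higher in MKN1 by 3.54 on the log2 scale (SE 0.13, edgeR quasi-likelihood adjusted p = 3.06e-11). HYAL3 was higher by 1.20 (SE 0.19, adjusted p = 5.96e-05) and CACNG6 by 1.03 (SE 0.18, adjusted p = 0.000173). ACSF2 had −0.85 (SE 0.11, adjusted p = 1.25e-05).

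TGM2 had a mean line difference of 0.03 (SE 0.10, adjusted p = 0.817), the smallest of the 8 relative to its error. Averaged over both treatments, no difference between the lines was detected for this gene. TSPOAP1 (0.43, SE 0.22, adjusted p = 0.0885), MFSD4A (0.29, SE 0.18, adjusted p = 0.172) and TMEM217 (−0.47, SE 0.24, adjusted p = 0.0976) did not pass either. TSPOAP1 passed in 5 alternatives, with upper-quartile factors, with DESeq2, with the replicate number as a block, and without untreated MKN1 replicate 1 or treated MKN1 replicate 1 (adjusted p 0.0251 to 0.0472). TMEM217 passed without untreated MKN1 replicate 1 (adjusted p = 0.0469) and MFSD4A without treated MKN1 replicate 3 (adjusted p = 0.02).

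Within the treatments, the line with the higher mean changed for 7 of the 8 genes. Untreated MKN1 had 3.11 times the TGM2 of untreated AGS, and treated AGS had 2.99 times that of treated MKN1. For ACSF2 the ratios were 1.27 towards MKN1 untreated and 4.14 towards AGS treated, and for MFSD4A 3.03 and 2.03. CACNG6 went from 5.16-fold higher in MKN1 to 1.24-fold higher in AGS. In the other direction TMEM217 went from 5.28-fold higher in AGS to 2.78-fold higher in MKN1, and HYAL3 from 1.57-fold to 8.22-fold. These ratios share the chosen contrasts and have no test.

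**Figure D3:**
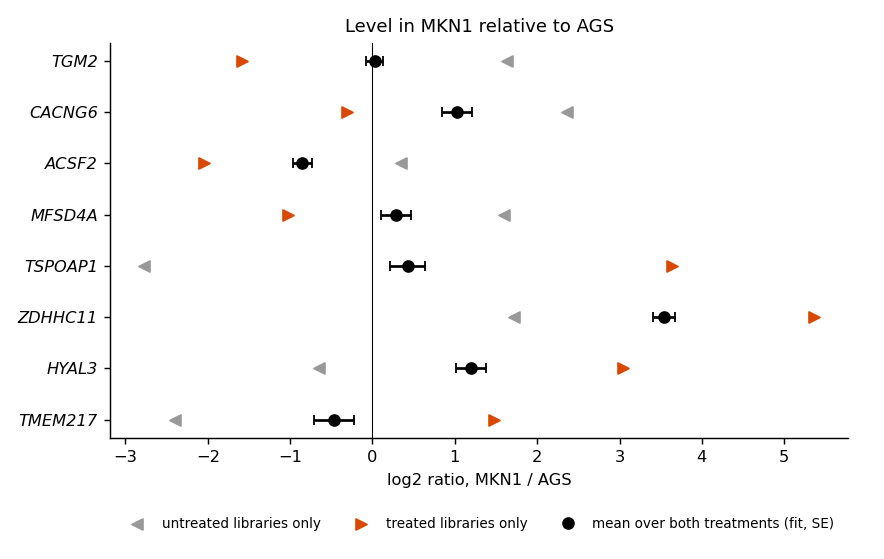
Log2 ratio of MKN1 to AGS (x axis) for each gene: grey and orange triangles are ratios of group means in untreated and treated libraries, and black points the fitted mean over both with its SE. TGM2 sits at 0.03 with its triangles on either side of 0, and ZDHHC11 has all 3 marks on the MKN1 side.

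The 8 genes differed in how tightly their libraries agreed. For TGM2 and ACSF2 the coefficient of variation in treated AGS cells was 1.16% and 1.76%. The largest values were 47.6% for TMEM217 in untreated and 41.4% for TSPOAP1 in treated MKN1 cells. After the mean of each line was subtracted from log2 CPM, the Pearson r over the 12 libraries was highest for ACSF2 with MFSD4A (0.978) and for TSPOAP1 with ZDHHC11 (0.97). Within the TGM2 set r was at least 0.798 and within the TSPOAP1 set at least 0.863, whereas pairs across the sets lay between −0.913 and −0.468. These values describe genes picked for these patterns in shared libraries.

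The genes whose line-centred pattern over the 12 libraries was most like a member were taken from 13944 genes of at least 1 CPM on average. For TGM2 these were SUMF2, a paralogue of the sulfatase-activating enzyme (r = 0.977), CUL9, a cullin gene (r = 0.976), and TAFAZZIN, the cardiolipin acyltransferase gene (r = 0.976). SUMF2 had log2 fold changes of 0.81 in AGS and −0.81 in MKN1, smaller than those of TGM2. CACNG6 was closest to NCSTN, a gamma-secretase subunit gene (0.976), IFITM2, an interferon-induced membrane gene (0.975), and RECK, an inhibitor of matrix proteases (0.959). ACSF2 was closest to TSPAN15, a tetraspanin gene (0.989), and MFSD4A to HDAC6, the cytoplasmic deacetylase gene (0.984). For ACSF2, TNFAIP2 (0.981) and HDAC6 (0.979) followed, and MFSD4A had ACSF2 (0.978) and KLHDC9 (0.976) next.

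TSPOAP1 and ZDHHC11 shared 2 of their 3 closest genes, KCNK6, a potassium channel gene, and GATA2, a transcription factor gene of blood stem cells. KCNK6 had r of 0.987 and 0.982 with them. It was at 6.28, 5.66 and 5.75 CPM in untreated and 0.548, 0.594 and 0.727 CPM in treated AGS libraries, and at 39.8 to 57.7 CPM and 54.2 to 79.7 CPM in MKN1, where treated and untreated libraries overlapped. GATA2 was scarcely present in AGS, with 17 counts in all when untreated and 0 when treated, so its likeness there rests on very few reads. In MKN1 GATA2 was at 21.8 to 39.2 CPM in untreated and 38.2 to 51.7 CPM in treated libraries. LMAN2L followed for TSPOAP1 (0.983) and led for HYAL3 (0.979), and DGCR5 followed for ZDHHC11 (0.981). HYAL3 then had ZC3H4 (0.978) and MVK, the mevalonate kinase gene (0.974). TMEM217 was closest to IL11, a cytokine gene (0.979), GARIN1A (0.975) and NPIPB6 (0.97).

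The neighbourhoods were examined to see whether nearby genes moved with these 8. Within 100 kb of their bounds lay 51 other tested genes described here, of which 5 were higher and 9 lower in AGS (27.5%, against 20.8% of all tested genes) and 1, BRD9, passed in MKN1. The 2 tested neighbours of TGM2, RPRD1B and TTI1, and the 3 of MFSD4A, among them ELK4, did not pass in either line. RPRD1B and ELK4 share 4.90% of the TGM2 and 7.29% of the MFSD4A exon bases from the other strand, and CHAD shares 4.66% of those of ACSF2. RPRD1B had log2 fold changes of −0.06 (adjusted p = 0.7) in AGS and −0.23 (adjusted p = 0.151) in MKN1, ELK4 0.15 (adjusted p = 0.307) and −0.10 (adjusted p = 0.62), and CHAD 0.80 (adjusted p = 0.375) and −0.25 (adjusted p = 0.885).

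BRD9, a chromatin remodelling subunit gene that shares 3.19% of the ZDHHC11 exon bases, was the only one of these neighbours past the test in both lines with opposite signs, as 1.49% of all tested genes were. BRD9 was at 30.8, 31.5 and 31.2 CPM in untreated and 41.2, 39.9 and 40.0 CPM in treated AGS libraries. It was at 114, 135 and 113 CPM in untreated and 86.1, 76.0 and 90.9 CPM in treated MKN1 libraries. It rose in AGS by 0.37 (adjusted p = 0.0233) and fell in MKN1 by 0.52 (adjusted p = 0.0133), which is the reverse of ZDHHC11.

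Beside TSPOAP1, 2 genes fell in AGS. MIR142HG, the host transcript of a blood cell microRNA, was at 0.552, 0.857 and 0.488 CPM in untreated and 0.0608, 0.129 and 0.224 CPM in treated AGS libraries, from 77 and 15 counts (log2 fold change −2.14, adjusted p = 0.0044). MPO, the myeloperoxidase gene, had 48, 14 and 25 counts (87 in all) in untreated AGS and 0 in each treated library. It was at least 24.8-fold lower, taking 3 counts over the group as the floor (adjusted p = 0.00335). TSPOAP1-AS1, which overlaps 2.22% of the TSPOAP1 exon bases from the other strand, was at 4.60 to 5.06 CPM in untreated and 3.69 to 6.17 CPM in treated AGS libraries (log2 fold change 0.13, adjusted p = 0.828). The library kit does not mark strand, so reads in such overlaps cannot be told apart.

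Of the other neighbours, 5 lay near HYAL3. GNAI2, a G protein subunit gene, TMEM115, CYB561D2 and ZMYND10 fell in AGS by 0.91, 0.62, 0.79 and 1.65 (adjusted p = 0.000659, 0.00321, 0.011 and 0.0287). SEMA3B, a secreted semaphorin gene, rose by 0.64 (adjusted p = 0.0301). PIM1, a kinase gene near TMEM217, rose in AGS by 1.49 (adjusted p = 0.0097). Near ACSF2, EME1 rose by 0.60 (adjusted p = 0.0176) while MRPL27 and EPN3 fell by 0.82 and 0.93 (adjusted p = 0.0158 and 0.0232). Near CACNG6, OSCAR rose by 1.94 (adjusted p = 0.0295) and TFPT fell by 0.57 (adjusted p = 0.0232) in AGS. OSCAR (0.25 CPM untreated, 0.98 CPM treated) and ZMYND10 (0.60 and 0.19 CPM) were at low mean levels in AGS. CACNG8, a related channel subunit gene upstream of CACNG6, had log2 fold changes of 0.10 (adjusted p = 0.623) in AGS and 0.38 (adjusted p = 0.105) in MKN1.

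**Figure D4:**
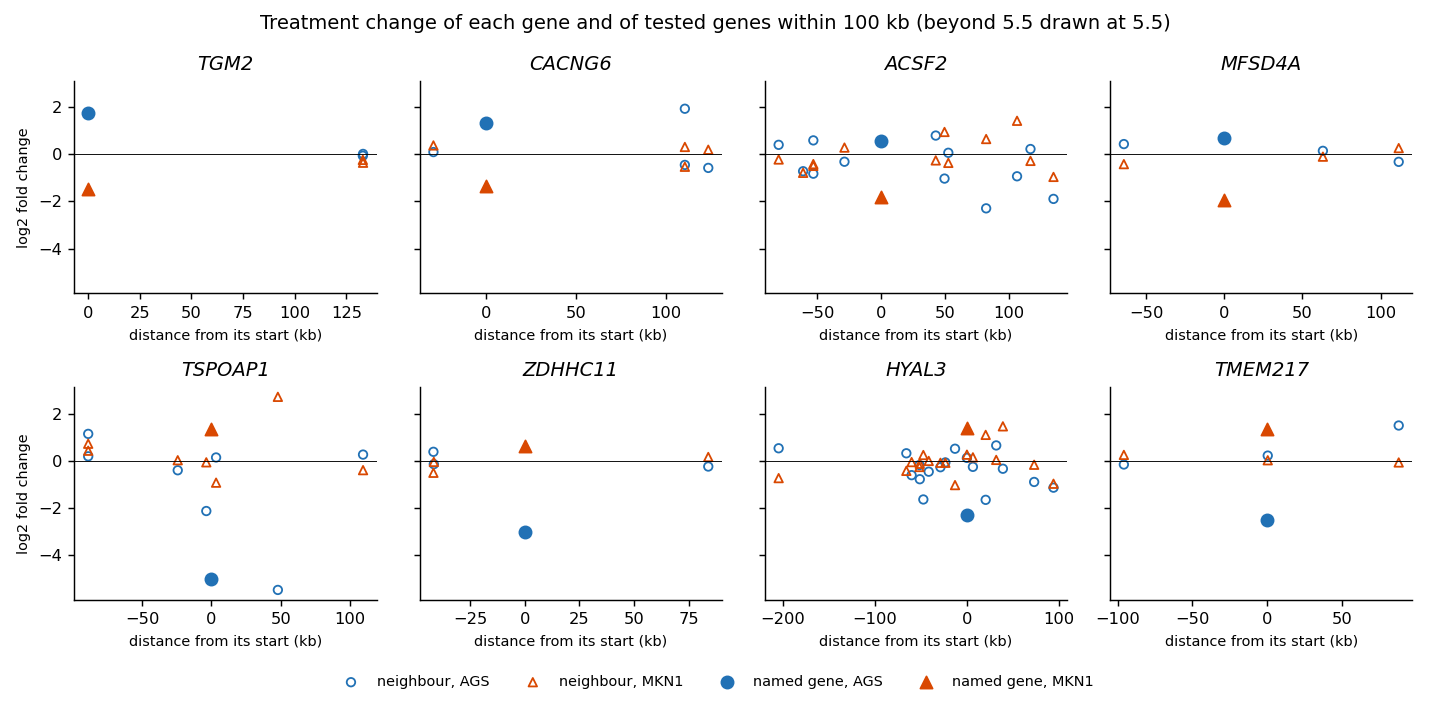
Log2 fold change (y axis) of each gene (filled) and of tested genes within 100 kb of its bounds (open) by the distance between starts in kb, positive in the direction of transcription; blue circles are AGS, orange triangles MKN1, and MPO, without counts in treated AGS, is drawn at the edge. Starts can lie over 100 kb away where a gene reaches into the window; at TSPOAP1 the filled marks stand at −5.05 and 1.34, and MIR142HG near it at −2.14 in AGS.

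Genes of the same families and pathways were counted from lists put together by function, with earlier results of these data known. Of 136 listed genes 112 were tested. In AGS 12 rose and 12 fell by edgeR's quasi-likelihood test, 21.4% of them against 20.8% of all tested genes (9.21% higher and 11.6% lower), and their median log2 fold change was −0.05 against −0.01 over all. In MKN1 2 rose and 10 fell, 10.7% against 6.7% (2.8% higher and 3.9% lower), with medians of −0.05 and 0.01. The AGS count of 24 moved to 12, 15, 12, 14, 11 and 14 without untreated replicates 1, 2 and 3 and treated replicates 1, 2 and 3 in turn. The MKN1 count of 12 moved to 5 without untreated replicate 2, 29 without untreated replicate 3 and 7 without treated replicate 2.

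Around TGM2, 2 of 8 other transglutaminase genes were tested, and TGM4, the prostate transglutaminase gene, fell in AGS by 1.53 (SE 0.44, adjusted p = 0.0276) at under 1 CPM. TGM1 did not pass in either line, and TGM4 was named after its values were seen. Of 8 genes for surface partners of the enzyme, 1 passed in AGS (12.5%, against 20.8% of all tested genes). In MKN1 2 passed (25%, against 6.7%), 1 higher and 1 lower. ITGB1, the integrin beta 1 gene, rose in AGS by 0.62 (SE 0.15, adjusted p = 0.0118). In MKN1 ITGA5, the alpha chain of the fibronectin receptor, rose by 0.47 (SE 0.12, adjusted p = 0.0353), and ADGRG1, an adhesion receptor gene, fell by 0.76 (SE 0.21, adjusted p = 0.046). Of 9 tested retinoic acid response genes, 4 fell in AGS (44.4%, against 20.8% of all tested genes), and 3 fell and 1 rose in MKN1 (44.4%, against 6.7%). The list's median log2 fold change was −0.51 in AGS and −0.96 in MKN1, against −0.01 and 0.01 over all tested genes. The 4 in AGS were CYP26A1 and CYP26B1, which encode enzymes that break down retinoic acid, RARB, a receptor gene, and CRABP2. CRABP2, which encodes a retinoic acid carrier, fell in AGS by 0.83 (SE 0.18, adjusted p = 0.00692), the line in which TGM2 was higher when treated. In MKN1 PLAAT4, a retinoid-inducible phospholipase gene, fell by 1.35 (SE 0.21, adjusted p = 0.00508) and RARRES2, the chemerin gene, by 1.31 (SE 0.31, adjusted p = 0.0262). DHRS3, a retinal reductase gene, fell by 1.07 (SE 0.24, adjusted p = 0.0236).

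CYP26B1 was opposed between the lines, in the sense reverse to TGM2. It was at 1.497, 1.49 and 1.69 CPM in untreated and 0.395, 0.490 and 0.336 CPM in treated AGS libraries. In MKN1 it was at 19.4, 21.6 and 20.2 CPM in untreated and 32.2, 35.4 and 42.4 CPM in treated libraries. CYP26B1 fell in AGS by 1.92 (SE 0.20, adjusted p = 0.000158) and rose in MKN1 by 0.85 (SE 0.15, adjusted p = 0.00732). CYP26A1 summed to 56 counts in untreated AGS and 2 in treated AGS, and RARB fell there by 1.83 (SE 0.53, adjusted p = 0.0277) at under 1 CPM. The genes CYP26A1, CYP26B1, RARB and DHRS3 were named after their values were seen.

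PLAAT4 was at 2.52, 3.00 and 4.62 CPM in untreated and 5.81, 5.34 and 4.76 CPM in treated AGS libraries, and at 48.4, 60.9 and 41.4 CPM against 22.04, 20.4 and 16.8 CPM in MKN1. The AGS change of 0.65 missed the threshold (SE 0.22, adjusted p = 0.0543), and the difference between the lines was −2.00 (adjusted p = 0.00147).

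Among 10 tested genes of hyaluronan turnover, 1 passed in each line (10%, against 20.8% in AGS and 6.7% in MKN1). The synthase gene HAS1 fell in AGS by 1.26 (SE 0.36, adjusted p = 0.027), where HYAL3 was lower as well. CEMIP2, a hyaluronan-degrading surface enzyme gene, fell in MKN1 by 1.02 (SE 0.16, adjusted p = 0.00542), where HYAL3 was higher. HAS1 was at 2.66, 2.57 and 3.06 CPM in untreated and 1.16, 1.34 and 0.951 CPM in treated AGS libraries, and had at most 10 counts in any MKN1 library.

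Of 28 tested palmitoylation genes, 6 rose and 3 fell in AGS (32.1%, against 20.8% of all tested genes) and 2 fell in MKN1 (7.14%, against 6.7%, near the background). ZDHHC1, another palmitoyltransferase gene, fell in AGS by 2.36 (SE 0.21, adjusted p = 5.49e-05), from 2.90, 3.74 and 2.93 CPM to 0.639, 0.542 and 0.671 CPM. In MKN1 ZDHHC1 was at 7.44, 7.51 and 6.04 CPM in untreated and 9.35, 9.03 and 9.57 CPM in treated libraries, without overlap, but its change of 0.41 missed the threshold (SE 0.18, adjusted p = 0.184). ZDHHC14 fell as well, by 0.67 (adjusted p = 0.0187). The palmitoyltransferase genes ZDHHC4, ZDHHC17, ZDHHC20 and ZDHHC23 and the depalmitoylating genes LYPLA1 and ABHD17C rose in AGS by 0.35 to 0.70, and these 6 and ZDHHC14 were named after their values were seen. LYPLA2, a depalmitoylating enzyme gene, fell in AGS by 0.79 (SE 0.13, adjusted p = 0.00211). ZDHHC12 and ZDHHC24 fell in MKN1 by 0.74 and 0.69 (adjusted p = 0.0205 and 0.021).

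None of 17 tested voltage-gated calcium channel genes other than CACNG6 passed edgeR's quasi-likelihood test in AGS, against 20.8% of all tested genes. At an unadjusted p under 0.05 there were 2, and by DESeq2 1. Of these channel genes only CACNA1D, CACNB1, CACNB2, CACNB3 and CACNG8 averaged at least 1 CPM in AGS. The others were near the floor there, where a change is hard to detect, so no lack of response is read from this count. In MKN1 1 passed (5.88%, against 6.7%). CACNG4, another gamma subunit gene, fell in MKN1 by 1.82 (SE 0.47, adjusted p = 0.0378). Of the 4 tested genes related to TSPOAP1, 0 passed in either line, where 20.8% and 6.7% of all tested genes did. At an unadjusted p under 0.05 there were 0 in AGS and 2 in MKN1, and by DESeq2 0 and 0. Only TSPO of this list averaged at least 1 CPM in AGS. Of 19 tested acyl-CoA synthetase genes, 2 rose and 1 fell in AGS (15.8%, against 20.8%) and 0 passed in MKN1 (against 6.7%). In MKN1 3 had an unadjusted p under 0.05, and 3 passed by DESeq2. ACSL5, which activates long-chain fatty acids, rose in AGS by 1.07 (SE 0.20, adjusted p = 0.00391), and SLC27A1, a fatty acid transport protein gene, by 0.79 (SE 0.15, adjusted p = 0.00338). SLC27A3, of the same family, fell in AGS by 0.69 (adjusted p = 0.0158) and was named after its values were seen. In MKN1 ACSL5 and SLC27A1 had −0.60 (adjusted p = 0.0969) and −0.50 (adjusted p = 0.0566). Of 15 tested MFSD transporter genes, 3 rose and 2 fell in AGS (33.3%, against 20.8%) and 2 fell in MKN1 (13.3%, against 6.7%). MFSD6 rose in AGS by 0.68 (SE 0.18, adjusted p = 0.0175) and MFSD5 fell by 0.67 (SE 0.14, adjusted p = 0.00679). MFSD14A rose in AGS by 0.38 (SE 0.11, adjusted p = 0.028) and fell in MKN1 by 0.57 (SE 0.11, adjusted p = 0.013), the same signs as MFSD4A, and MFSD3 fell in MKN1 by 1.31 (SE 0.26, adjusted p = 0.0142). MFSD14B, which rose in AGS by 0.32 (adjusted p = 0.036), and MFSD2B, which fell by 2.85 (adjusted p = 0.00543), were named after their values were seen.

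**Figure D5:**
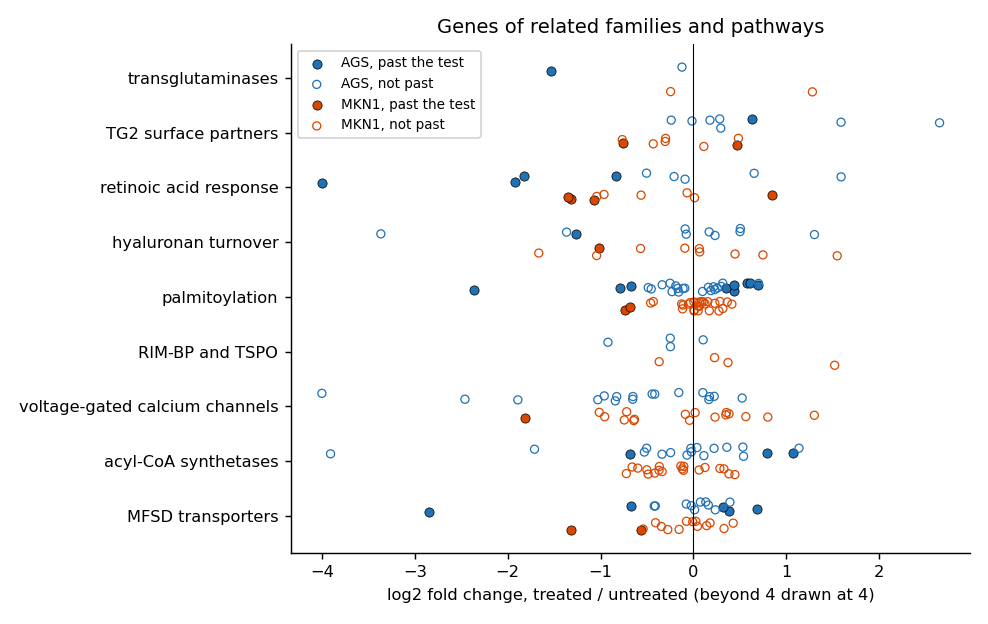
Log2 fold change (x axis, values beyond 4 drawn at 4) of the tested genes of 9 related lists in AGS (blue) and MKN1 (orange); filled points passed the test at an adjusted p of 0.05. Filled points stand on both sides of 0 in AGS (12 higher, 12 lower) and mostly below 0 in MKN1 (2 higher, 10 lower).

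Median changes in AGS differed with the GC content of transcripts, whose part in the values of the 8 genes was tested only by subtraction. Tested genes of like GC content (1 of 10 equal bins) had median log2 fold changes of −0.34 for CACNG6, −0.24 for TSPOAP1 and HYAL3, −0.19 for TGM2, ACSF2 and ZDHHC11, −0.08 for MFSD4A and 0.02 for TMEM217. With these medians subtracted, an alternative added after the data were seen, the AGS values became 1.95 for TGM2, 1.68 for CACNG6, 0.77 for ACSF2 and 0.76 for MFSD4A, and −4.81 for TSPOAP1, −2.83 for ZDHHC11, −2.07 for HYAL3 and −2.56 for TMEM217. All 8 kept their sign in both lines. In these bulk libraries, fewer cells of a kind and less RNA per cell cannot be told apart.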

How the data were processed

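Total RNA was made into libraries with a kit that does not mark strand, and reads were aligned with HISAT2 2.0.4 to GRCh38, per the labels' protocols and the submitters' processing notes. The counting tool, its handling of reads in several genes and the annotation are not stated in the labels read here. The authors deposited 1 matrix of raw counts per Ensembl gene for the 12 libraries. A list of gene names gave symbols to 32069 of 32269 identifiers, and GENCODE release 29 gave positions and exons. Library sizes in the fit and its CPM were summed over the 20280 tested genes, and those of the marker values over every identifier.

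Counts were fitted in R 4.3.3 with edgeR 4.0.16 (filterByExpr, TMM factors, quasi-likelihood F-test) over all 4 groups, which left 20280 genes (residual df 8, prior df 4.91, common BCV 19.7%). Adjusted p-values are Benjamini-Hochberg values over every tested gene; the threshold was 0.05. CPM were scaled by TMM factors, marker values by library totals. The fit was tested on simulated data. Alternatives were other scalings, other filters, DESeq2 1.42.0, limma 3.58.1 voom, each line alone, a replicate block and leaving out each library.

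The 8 genes, the related lists and the tests were chosen with earlier results of these data known. Named besides the 8 were, per related list and line, the 2 largest changes past the threshold at 1 CPM or more; neighbours within 100 kb past the threshold or sharing exon bases; and the 3 genes of most similar pattern. A neighbour that is not reported here was left out of the neighbour counts, but not of the fit. Promoter windows are RefSeq's; annotation coordinates are GENCODE's, both on GRCh38.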

Additional observations from a re-analysis of the deposited data

Results flagged for a closer look

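The treatment change differed between the lines for the genes below, given as the log2 change in MKN1 minus that in AGS. For the 8 described genes all treated libraries lay on one side of the untreated ones in AGS and on the other side in MKN1. They were picked for this, and the difference was not tested for them. Their values were −3.21 for TGM2, −2.68 for CACNG6, −2.40 for ACSF2, −2.62 for MFSD4A, 6.39 for TSPOAP1, 3.65 for ZDHHC11, 3.68 for HYAL3 and 3.88 for TMEM217.

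Among 112 tested related genes the difference passed edgeR's quasi-likelihood test after adjustment for 21, where it passed for 15.7% of all tested genes. Positive differences were 2.81 for TGM4, 3.76 for CYP26A1, 2.77 for CYP26B1, 2.81 for HAS1, 2.78 for ZDHHC1, 0.92 for LYPLA2 and 2.50 for MFSD2B. CYP26A1 rests on 2 counts in treated AGS libraries. Others of these were under 1 CPM on average in some groups. They were TGM4 in every group, HAS1 in both MKN1 groups, and MFSD2B in these and in treated AGS. CYP26B1 and ZDHHC1 were so in treated AGS. Negative differences were −1.05 for ADGRG1, −2.00 for PLAAT4, −1.19 for CEMIP2, −0.56 for ZDHHC4, −1.0002 for ZDHHC24, −1.67 for ACSL5 and −1.29 for SLC27A1. The MFSD transporter genes MFSD3, MFSD14A and MFSD14B had −1.24, −0.95 and −0.60. HMMR of the hyaluronan list had −1.07, SLC27A2 −1.25 and MFSD2A 0.75, named after their values were seen. HYAL1, also a related gene, is given with the neighbours.

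Among 51 tested neighbours the same test passed for TFPT (0.77), EME1 (−1.08), EPN3 (2.36), MIR142HG (2.07), BRD9 (−0.89), TMEM115 (0.56), HYAL1 (−1.55), GNAI2 (0.73) and PIM1 (−1.57). It also passed for LRRC59 near ACSF2 (0.60, adjusted p = 0.0207), named after its values were seen. MPO passed as well (adjusted p = 0.0402), but had 0 counts in treated AGS and in untreated MKN1, so its size is not given. Of all tested genes 15.7% passed. EPN3 and HYAL1 averaged under 1 CPM in both MKN1 groups, and MIR142HG in both AGS groups.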

How the results depend on the processing

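Of 544 recomputed treatment values of the 8 genes, 0 reversed and 5 moved by more than the spread between replicates: TGM2 in AGS without untreated AGS replicate 1 (1.88), and the GC-adjusted AGS values of TGM2, ACSF2, TSPOAP1 and HYAL3 given above. The TGM2 line mean was −0.02 (adjusted p = 0.866) without untreated AGS replicate 2, −0.0329 (0.766) without untreated MKN1 replicate 3 and −0.0311 (0.791) without treated MKN1 replicate 2, from −0.0329 to 0.0872 over the 12 libraries left out in turn, with adjusted p from 0.321 to 0.938 over all alternatives; the causes were not tested. Between 4 and 6 of the 8 passed for the line mean.

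Counts of genes past the threshold moved more. The main fit shares its estimate of the spread between the lines. With each line fitted alone, the spread comes from fewer samples, those of that line only. The counts then went from 4214 to 8368 in AGS and from 1358 to 34 in MKN1, and for related genes from 24 to 53 and from 12 to 1. In AGS the SEs of the described genes fell, except for ZDHHC11. In MKN1 they rose, except for CACNG6. The MKN1 calls thus depend on the shared estimate. DESeq2 gave 2459 in MKN1 and 23 related genes there, and no filter gave 809. Leaving out 1 library gave 2051 to 5533 in AGS, 336 to 3160 in MKN1 (336 without untreated replicate 2, 3160 without untreated replicate 3), 2098 to 4643 for the line difference, and 11 to 33 and 5 to 29 related genes.

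Deviations from the group means correlated weakly between libraries of the same replicate number. The values were −0.00806, 0.027 and −0.0428 in AGS and 0.119, −0.0819 and 0.202 in MKN1. They cannot show whether samples of the same number were paired. With the replicate block, 4087 genes passed in AGS, 1207 in MKN1, 3235 for the line difference and 15308 for the line mean, where TSPOAP1 had 0.37 (adjusted p = 0.0472). TSPOAP1 in treated AGS rests on 13 to 20 counts per library.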
